A study of Mus musculus with 9 samples.

Results

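The B cell genes described here were 32 genes of the B lymphocyte lineage, chosen by symbol from the rows of a table of RNA-seq counts, and all 32 were among the 23413 genes of that table. All 32 also passed the filter on low counts that left 11393 genes for testing, a filter that a gene can pass through high counts in a few libraries alone. The libraries came from sorted liver macrophages of male C57BL/6 mice with no engineered allele, 1 library per labelled mouse. In all groups the mice started their diet at 5 weeks of age and stayed on it for 8 weeks, with normal chow (NC, 2 libraries), a high-fat diet with injections of the vehicle PEG3000 (HFD + vehicle, 3 libraries) or a high-fat diet with injections of diphenyleneiodonium in that vehicle (HFD + DPI, 4 libraries). DPI, studied here as an agonist of the receptor GPR3, was given at 2 mg/kg into the peritoneum every 5 days from week 3, whereas a protocol note in the sample labels speaks of 500 nM for 24 h. The cells were gated as F4/80+CD11b+Gr1low, a sort for macrophages in which no B cell marker was used.

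B cells recognise antigen through a receptor made of membrane immunoglobulin and the signalling pair CD79A and CD79B. Signals from it pass through Src family kinases such as BLK and adaptors such as BLNK, and they are set by coreceptors that amplify or dampen them. B cell identity rests on the transcription factors EBF1 and PAX5, and follicular homing and survival on the receptors CXCR5 and BAFF-R. Several of the genes are also used outside the lineage, among them Cd37 and Cd24a in many leukocytes and Bcl11a and Spib in plasmacytoid dendritic cells.

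The 250 bases before the start sites of the B cell genes were searched for short words bound by B cell transcription factors. RefSeq start sites on GRCm38.p6 were matched for 25 of the 32 genes, and both strands were read. The octamer ATGCAAAT, the word bound by the OCT2 protein that Pou2f2 encodes and used by the coactivator of Pou2af1, was found before 2 of the 25 genes (8%), Blnk and Vpreb3, and before 1.81% of all 27025 genes of that table. The EBF1 word TCCC-NN-GGGA was found before 2 of the 25, Cd22 and Chst3, and before 0.914% of all genes, N standing for any base. The word GGAA-NN-GAAA, bound jointly by ETS and IRF proteins such as SPIB with IRF4, was found before 2 of the 25, Bank1 and Pou2f2, and before 2.68% of all genes. These counts describe matching letters and not bound sites. One stretch per word is shown, on the strand of the gene, with the match in capitals, which for Vpreb3 and Bank1 reads as the reverse complement of the word. The stretches lie at chr10:75948229-75948288 (+ strand, 71 to 12 bases before the start) for Vpreb3, chr7:30879044-30879103 (- strand, 75 to 16 bases before it) for Cd22 and chr3:136326099-136326158 (- strand, 92 to 33 bases before it) for Bank1. None overlaps an annotated exon, and those of Vpreb3 and Cd22 lie within the gene body of GENCODE M21, in which longer transcripts start further upstream.
Vpreb3: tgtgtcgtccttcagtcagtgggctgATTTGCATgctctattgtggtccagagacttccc
Cd22: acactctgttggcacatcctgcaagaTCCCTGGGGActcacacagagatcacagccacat
Bank1: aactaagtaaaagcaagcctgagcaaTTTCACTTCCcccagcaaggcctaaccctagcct

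Library totals ranged from 3534325 to 15585775 counts, and 27.0% to 44.5% of them fell on the ribosomal RNA precursor Rn45s. Values given as counts are raw and not scaled for depth, which was greatest in DPI library 1. A count of 3, the smallest taken to differ from none, corresponded to between 0.184 and 1.02 CPM (counts scaled to a common library size, after TMM scaling), a floor that covers counting error only. The NC libraries resembled each other less than others did, with a rank correlation over tested genes of 0.740, where vehicle libraries gave 0.867 to 0.880 and DPI libraries 0.838 to 0.887. The macrophage gene Csf1r had 1617 to 7753 counts in every library, while the Kupffer cell gene Clec4f had 0 and 244 counts in NC, 42, 0 and 0 in HFD + vehicle and 219, 6, 4 and 6 in HFD + DPI. The labels number the mice but do not say how they were housed or processed, so p-values measure the spread between these libraries.

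The summed level of the 32 B cell genes was 234 and 425 CPM in the NC libraries, 512, 648 and 527 CPM in the vehicle libraries and 299, 280, 570 and 1216 CPM in DPI libraries 1 to 4. All 3 vehicle libraries lay above both NC libraries, and the DPI libraries spanned a wider range than the other groups together. The former order was lost with scaling by library size alone, at 474 CPM in NC library 2 and 433 CPM in vehicle library 3. DPI library 4 stood apart, with the highest level of all 9 libraries for 23 of the 32 genes. Its level was at least 2 times the mean of the other DPI libraries for 27 genes, with a median ratio of 4.19, and below that mean for 4, Cd72, Pou2f2, Bcl11a and Tnfrsf13b. NC library 1 was at the other end, with the lowest level of the 9 libraries, ties included, for 19 genes and 0 counts for 11. In bulk RNA, fewer cells of a type and less RNA per cell cannot be told apart.

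**Figure D1:**
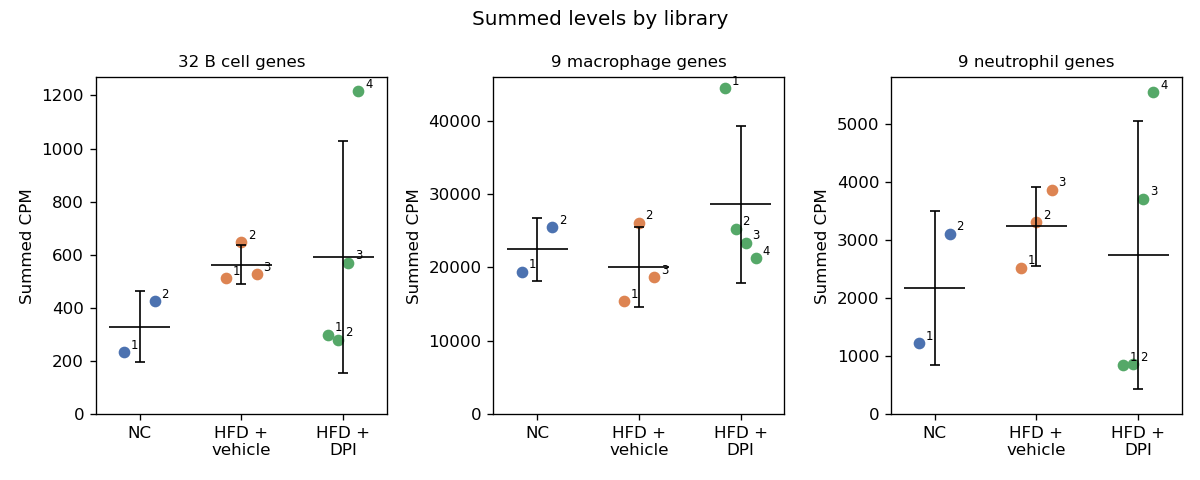
Summed level in CPM (vertical axis) of the 32 B cell genes, of 9 macrophage genes and of 9 neutrophil genes in each library, with numbered points for libraries, horizontal lines for group means and bars for the SD. For the B cell genes, DPI library 4 lies at 1216 CPM, above every other library, and NC library 1 lowest at 234 CPM, and for the neutrophil genes DPI library 4 is again highest.

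Of 15 immunoglobulin genes looked for by symbol, Igj, which encodes the joining chain of secreted antibody, and Igll1 were matched, and the other 13 were not analysed here. Igj had 4 and 467 counts in NC, 225, 918 and 481 in HFD + vehicle and 1127, 289, 938 and 451 in HFD + DPI, with no peak in DPI library 4. Igll1, a gene of the precursor B cell receptor, was at 0 in all 9. Plasmacytoid dendritic cells share several of the 32 genes. The 9 genes of a list for these cells summed to 93.2 and 41.6 CPM in NC, 101, 49.3 and 107 CPM in HFD + vehicle and 52.6 to 74.6 CPM in HFD + DPI. None of its 6 tested genes was called in any comparison, and its defining gene Siglech had 1 to 21 counts per library.

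Levels between genes were compared per kilobase of annotated exon, as means over the 9 libraries. Cd79a was highest at 42.0 CPM per kilobase, followed by Cd37 at 29.4, Cd24a at 22.1, Cd79b at 21.7 and Ly6d at 19.3. The lead of Cd79a was not shared by all groups. In NC it had 17.7 against 19.0 CPM per kilobase for Cd37, in HFD + vehicle 47.7 against 30.1, and in DPI libraries 1 to 3 16.5 against 26.8. The lowest were the receptor gene Cr2 at 0.223 and the lineage factors Pax5 at 0.356 and Ebf1 at 0.382 CPM per kilobase. Counts were above 0 in all 9 libraries for 20 of the 32 genes, and at 10 or more in all 9 for 10 of them.

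**Figure D2:**
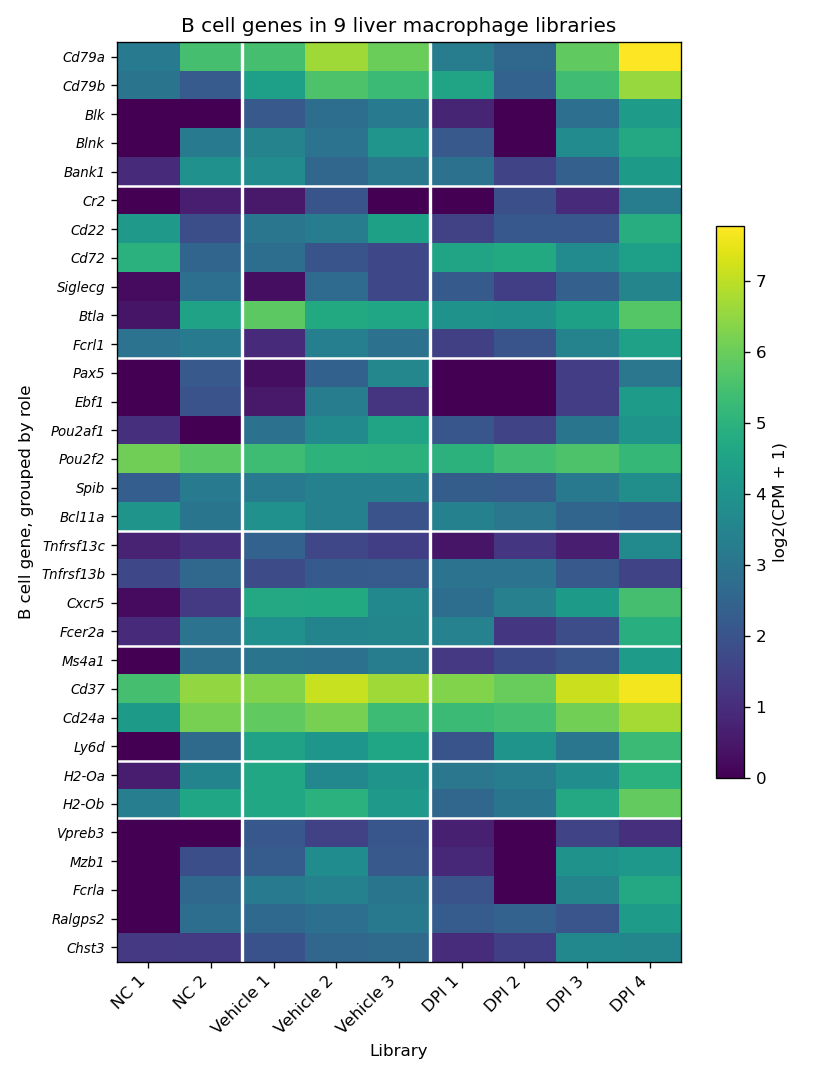
Level of each of the 32 B cell genes (rows, grouped by role as in the text) in each of the 9 libraries (columns), as log2(CPM + 1) on a colour scale from 0 to the highest value. The column of DPI library 4 is bright for most rows, and dark cells at 0 gather in NC library 1 (11 genes) and DPI library 2 (7 genes).

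In macrophages from vehicle-treated HFD-fed mice, 26 of the 32 B cell genes had a positive log2 fold change relative to NC and 6 a negative one, with a median of 1.43 against 0.03 over all tested genes. At the study's threshold, an edgeR p under 0.05 before adjustment and a change of at least 2-fold, 7 of the 32 (21.9%) were called, against 11.7% of all 11393 genes. Of these, 6 were higher (7.03% of all genes were), namely Cxcr5, Pou2af1, Blk, Cd79b, Vpreb3 and Ly6d, and 1 was lower (4.63% of all genes), Cd72. None had an adjusted p under 0.05 with edgeR's quasi-likelihood test and Benjamini-Hochberg adjustment (0.0614% of all genes had), the smallest being 0.136, while 8 had an unadjusted p under 0.05 (13% of all genes had). DESeq2 gave 4 adjusted calls, Blk, Cd79b, Cxcr5 and Pou2af1 (2.75% of all genes had one). The HFD + vehicle libraries lay above both NC libraries for 15 genes (15% of all genes) and below both for 1, Pou2f2 (12.5% of all genes). Without NC library 2 the median log2 fold change over the 32 genes was 3.66 against 0.29 over all genes. In the NC library that then remained, 11 of the 32 genes were at 0 counts. The count of calls also rested on the NC libraries. Without NC library 1 it was 4, Blk, Cd79b, Cxcr5 and Pou2af1, in a fit that called 12.4% of all genes, with a median log2 fold change over the 32 genes of 0.62 against 0.14 over all genes. Without NC library 2 it was 15, of which 14 were higher, in a fit that called 21.4% of all genes.

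**Figure D3:**
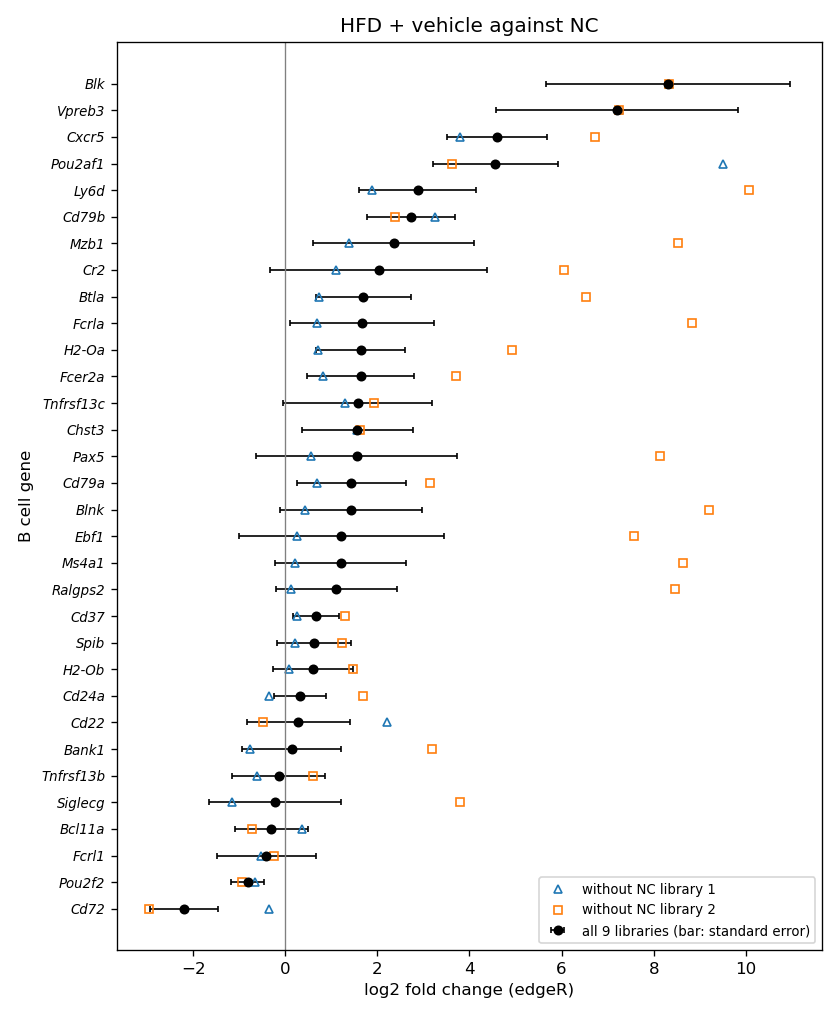
Log2 fold change of HFD + vehicle against NC (horizontal axis) for each B cell gene (rows), from edgeR with all 9 libraries (black, bars for the standard error), without NC library 1 (triangles) and without NC library 2 (squares). Of the 32 black points 26 lie above 0. Fitted values against a group at 0 counts, such as those of Blk and Vpreb3 and most squares above 6, depend on the prior count and are not measured folds.

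In macrophages from DPI-treated HFD-fed mice, 1 of the 32 B cell genes was called relative to vehicle, against 2.84% of all genes, and this was Cd72, which was higher (1.5% of all genes were). Of the 32 genes, 18 had a positive and 14 a negative log2 fold change, with a median of 0.07 against 0.04 over all genes, and none was called lower (1.34% of all genes). The smallest adjusted p was 0.999 with edgeR, no gene of the table had an adjusted p under 0.05, and DESeq2 made no adjusted call among the 32 (0.0176% of all genes had one). Cd72 was also the only gene of the 32 whose DPI and vehicle libraries were apart with the DPI group higher (3.38% of all genes), and none had the DPI group lower and apart (2.48% of all genes). The balance of signs rested on DPI library 4. Without it, 5 of the 32 log2 fold changes were positive and 27 negative, with a median of -0.88 against 0.02 over all genes, and 2 genes were called, Cd72 as higher and Cd22 as lower, where 4.1% of all genes were called.

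**Figure D4:**
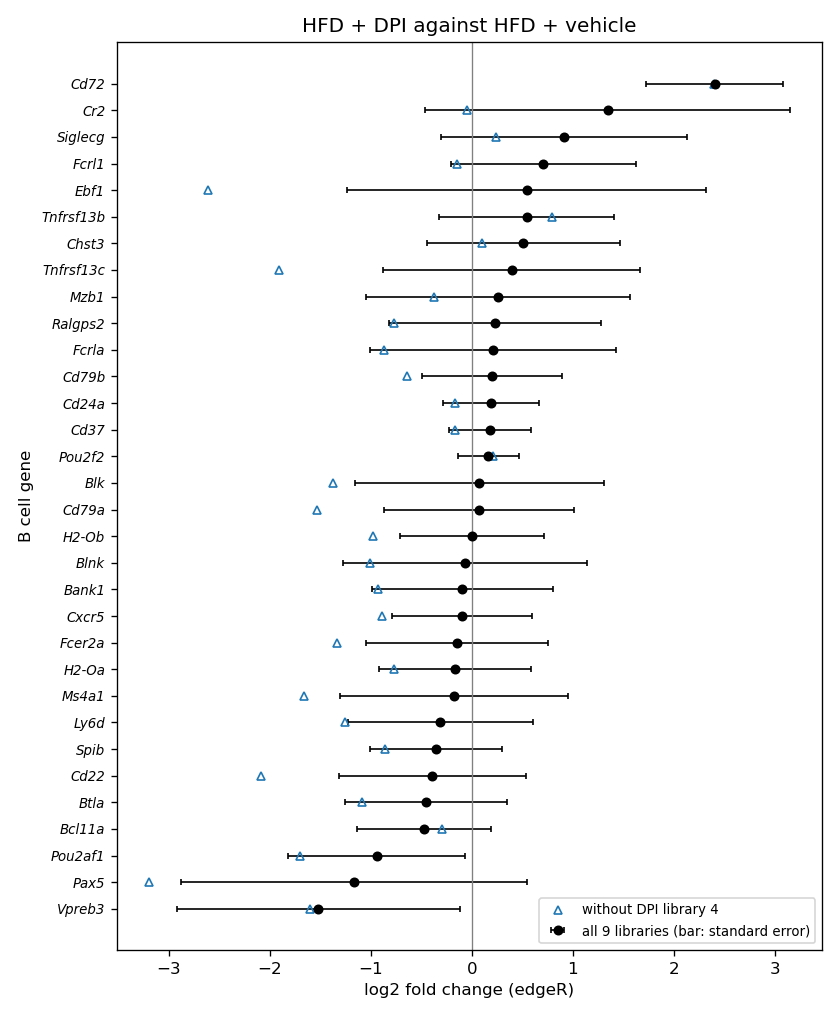
Log2 fold change of HFD + DPI against HFD + vehicle (horizontal axis) for each B cell gene (rows), from edgeR with all 9 libraries (black, bars for the standard error) and without DPI library 4 (triangles). The black points scatter around 0, with Cd72 highest at 2.40, and 27 of the 32 triangles lie below 0.

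Relative to NC, 29 of the 32 B cell genes had a positive log2 fold change in DPI-treated HFD-fed mice, with a median of 1.35 (1.29 with genes at 0 in NC set to their lower bound) against 0.04 over all genes. At the same threshold 5 of the 32 were called, against 9.29% of all genes. All 5 were higher, namely Cxcr5, Blk, Cd79b, Pou2af1 and Vpreb3 (6.24% of all genes were), and none was lower (3.05%). Vpreb3 was called on a fitted value against 0 counts in NC, which depends on the prior count. Its lower bound was 1.71-fold, under the 2-fold limit. None had an adjusted p under 0.05 with edgeR (0.00878% of all genes had), the smallest being 0.146, while 5 had an unadjusted p under 0.05 (10.7% of all genes had). DESeq2 made 3 adjusted calls, Blk, Cd79b and Cxcr5 (1.97% of all genes had one). All DPI libraries lay above both NC libraries for Pou2af1 and Cxcr5 (11.7% of all genes) and below both for Pou2f2 (8.5% of all genes). The count of calls was 5 without NC library 1 (9.62% of all genes), where Vpreb3 was lost and Cd72 added as higher, 24 of the 32 log2 fold changes were positive and their median was 0.62 against 0.16 over all genes. It was 16 without NC library 2 (21.3% of all genes) and 4 without DPI library 4 (8.83% of all genes), where 20 of the 32 log2 fold changes were positive, with a median of 0.32. Without NC library 2 the median over the 32 genes was 3.38 against 0.35 over all genes. The 3 comparisons share libraries, HFD + vehicle and HFD + DPI each being set against the same NC libraries, so their values stand side by side and do not check each other.

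Among the genes of the receptor and its proximal signalling, Cd79b, which encodes the beta chain of the CD79 pair (chr11:106311341-106314762, GRCm38, - strand), had 6.92 and 3.74 CPM in NC, 19.8, 47.9 and 38.7 CPM in HFD + vehicle and 22.3, 4.41, 40.8 and 94.6 CPM in HFD + DPI. Both NC libraries lay below all vehicle libraries, and DPI library 2 fell to the level of NC. The log2 fold change was 2.73 for HFD + vehicle against NC (standard error 0.95, unadjusted p = 0.0124, adjusted p = 0.286) and 2.93 for DPI against NC (standard error 0.93, unadjusted p = 0.00753, adjusted p = 0.329). Without NC library 2 the former was 2.39 and no longer called, and without DPI library 4 the latter was 2.08. Cd79a, its partner chain, had 8.01 and 43.5 CPM in NC, 43.5, 101 and 64.4 CPM in HFD + vehicle and 8.64, 5.09, 58.3 and 218 CPM in HFD + DPI, a spread of over 25 CPM (SD) within each group. Cd79a was called in no comparison in the fit of 3 groups with all libraries. In a fit with a term for the replicate number (the replicate block) it was called as lower for DPI against vehicle. The ratio of these partner chains therefore differed between libraries, with Cd79a the lower of them in DPI library 1 and far above Cd79b in NC library 2.

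Blk, the Src family kinase of B cells (chr14:63372836-63417037, - strand), was at 0 counts in both NC libraries, at 16, 33 and 34 counts in HFD + vehicle and at 12, 0, 33 and 177 counts in HFD + DPI. In HFD + vehicle its level, 5.99 ± 2.44 CPM (SD, n = 3), was at least 10.8-fold higher than in NC against a floor of 3 counts per NC library (unadjusted p = 0.00832, adjusted p = 0.260). In HFD + DPI it was 6.23 ± 8.35 CPM (SD, n = 4), at least 11.3-fold higher than in NC (unadjusted p = 0.00746, adjusted p = 0.329), with DPI library 2 at 0 and library 1 at 0.736 CPM. Without DPI library 4 that bound was 4.13-fold. Blnk, the adaptor that links the receptor to downstream enzymes, was at 0 in NC library 1 and DPI library 2 and between 37 and 245 counts in the others. Bank1, a scaffold protein of receptor signalling, had 5 and 76 counts in NC, 27 to 56 in HFD + vehicle and 6 to 176 in HFD + DPI. Neither Blnk nor Bank1 was called in any comparison.

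Among the coreceptors and inhibitory receptors, Cd72 was the one gene called with all libraries in the fit of 3 groups. Cd72 encodes a C-type lectin that dampens receptor signals (chr4:43446462-43454628, - strand), and it had 30.1 and 4.86 CPM in NC, 5.99, 3.08 and 2.23 CPM in HFD + vehicle and 22.2, 25.5, 12.4 and 20.0 CPM in HFD + DPI. All 4 DPI libraries lay above all 3 vehicle libraries, and the NC libraries lay on either side of that gap. It had a log2 fold change of 2.40 for DPI against vehicle (standard error 0.67, unadjusted p = 0.00333, adjusted p = 0.999), and it stayed between 2.14 and 2.89 with any 1 library left out. For HFD + vehicle against NC it was -2.21 (standard error 0.74, unadjusted p = 0.0104, adjusted p = 0.274), a value set by NC library 1, without which it was -0.35 and no longer called. The same 3 vehicle libraries enter both values. Cd72 overlaps Tesk1, a kinase gene on the opposite strand, which had 213 and 30 counts in NC, 16, 44 and 38 in HFD + vehicle and 110, 56, 5 and 68 in HFD + DPI. The counts of Cd72 were 165 and 26, 27, 17 and 9, and 362, 75, 67 and 196 in the same order. Neither set is scaled for depth, so counts of different libraries do not compare directly. Whether the counting used strand is not given in the sources used here, so reads of the overlap cannot be told apart.

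Cd22, an inhibitory lectin of the B cell surface, had 17.1 and 2.61 CPM in NC, 7.33, 8.52 and 20.3 CPM in HFD + vehicle and 1.84, 3.40, 3.34 and 27.8 CPM in HFD + DPI. DPI libraries 1 to 3 lay below every vehicle library and DPI library 4 above. Cd22 was called in no comparison in the fit of 3 groups with all libraries, and as lower for DPI against vehicle with the replicate block. Fcrl1, an Fc receptor-like protein that enhances B cell activation, had 6.74 and 8.03 CPM in NC, 0.888, 9.25 and 6.44 CPM in HFD + vehicle and 1.78, 3.06, 10.2 and 21.0 CPM in HFD + DPI. Its log2 fold change for DPI against vehicle was 0.71 (standard error 0.92, unadjusted p = 0.454), among the 5 smallest p-values of the 32 genes there, and its sign turned to -0.15 without DPI library 4. Siglecg, an inhibitory sialic acid receptor, had 0.182 and 6.16 CPM in NC, 0.222, 5.62 and 2.23 CPM in HFD + vehicle and 3.555, 1.70, 4.27 and 10.7 CPM in HFD + DPI. It had 1 count in each of NC library 1 and vehicle library 1. Its log2 fold change for DPI against vehicle was 0.91 (standard error 1.22, unadjusted p = 0.468). That value was 0.24 without DPI library 4, 0.36 without vehicle library 1 and 2.05 without vehicle library 2. Both groups overlapped for Fcrl1 and Siglecg.

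Btla, an attenuating receptor of B and T cells, had 0.364 and 21.1 CPM in NC, 55.3, 25.6 and 23.3 CPM in HFD + vehicle and 14.8, 13.9, 20.2 and 51.8 CPM in HFD + DPI. All vehicle libraries lay above both NC libraries, DPI libraries 1 to 3 lay below all vehicle libraries, and no comparison was called. Cr2, a complement receptor of B cells, was sparse, with 0 and 3 counts in NC, 2, 17 and 0 in HFD + vehicle and 0, 8, 5 and 84 in HFD + DPI, and it was called in no comparison. Of the 6 genes of this role, 3 had a positive log2 fold change for HFD + vehicle against NC and 4 for DPI against vehicle.

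Among the transcription factors, Pou2af1, which encodes the octamer coactivator OCA-B (chr9:51213708-51240080, + strand), had 1.09 and 0 CPM in NC, 6.44, 11.8 and 22.1 CPM in HFD + vehicle and 3.19, 2.04, 7.05 and 15.4 CPM in HFD + DPI. Every library on the high-fat diet lay above both NC libraries. The log2 fold change was 4.56 for HFD + vehicle against NC (standard error 1.36, unadjusted p = 0.00499, adjusted p = 0.229) and 3.62 for DPI against NC (standard error 1.29, unadjusted p = 0.0143, adjusted p = 0.374). Without NC library 2 these were 3.62 and 2.69, the latter no longer called, and without NC library 1 the remaining NC library was at 0. For DPI against vehicle it was -0.94 (standard error 0.88, unadjusted p = 0.302), with overlapping groups. It was -1.70 without DPI library 4 and -0.40 without vehicle library 3. Pou2f2, the octamer factor OCT2 itself, went the other way, at 66.7 and 54.2 CPM in NC, 40.2, 31.7 and 31.0 CPM in HFD + vehicle and 30.6, 40.8, 47.5 and 35.2 CPM in HFD + DPI. Both NC libraries lay above the other 7, and the difference for HFD + vehicle against NC had an unadjusted p of 0.0381 (adjusted p = 0.361) but was under 2-fold. This gene is outside the rule by which fold changes are given and was singled out after its values were seen.

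The lineage factors Pax5 and Ebf1 were sparse. Pax5 had 0 and 19 counts in NC, 1, 24 and 45 in HFD + vehicle and 0, 0, 9 and 73 in HFD + DPI, and Ebf1 had 0 and 16 counts, 2, 48 and 5, and 0, 0, 9 and 181 in the same order. Both were at 0 in NC library 1 and in DPI libraries 1 and 2, although DPI library 1 was the deepest of all. Neither was called in the fit of 3 groups with all libraries, while Pax5 was called as lower for DPI against vehicle with the replicate block. Spib, an ETS factor of B cells and plasmacytoid dendritic cells, was steadier, with 4.01 and 8.03 CPM in NC, 8.43 to 9.79 CPM in HFD + vehicle and 3.74 to 13.5 CPM in HFD + DPI. Bcl11a, a zinc finger repressor needed for early B cells, had 15.1 and 7.10 CPM in NC, 14.4, 9.61 and 2.97 CPM in HFD + vehicle and 9.68, 7.47, 4.82 and 3.98 CPM in HFD + DPI, lowest of the DPI group in the library where most of the other genes peaked. Spib and Bcl11a were called in no comparison.

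Among the homing and survival receptors, Cxcr5, the receptor for the follicular chemokine CXCL13 (chr9:44511787-44561877, - strand), had the smallest p of the 32 genes against NC. It had 0.182 and 1.49 CPM in NC, 25.1, 25.4 and 11.4 CPM in HFD + vehicle and 5.95, 9.51, 18 and 43.6 CPM in HFD + DPI. The NC libraries held 1 and 8 counts and every other library at least 28, so the groups were apart from NC with and without DPI. The log2 fold change was 4.60 for HFD + vehicle against NC (standard error 1.09, unadjusted p = 0.000925, adjusted p = 0.136) and 4.50 for DPI against NC (standard error 1.07, unadjusted p = 0.000936, adjusted p = 0.146). The former was 3.79 without NC library 1 and 6.72 without NC library 2, and called in both cases. The latter was 3.68 without NC library 1, 3.70 without DPI library 4 and 6.61 without NC library 2. Without the filter on low counts the adjusted p for HFD + vehicle against NC was 0.0474. Cxcr5 overlaps Bcl9l on the opposite strand, which had 101 and 30 counts in NC, 58, 76 and 45 in HFD + vehicle and 109, 27, 44 and 99 in HFD + DPI, not scaled for depth.

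Tnfrsf13c, the BAFF receptor that keeps mature B cells alive, had 4 and 6 counts in NC, 20, 12 and 7 in HFD + vehicle and 6, 4, 3 and 120 in HFD + DPI. The vehicle libraries lay narrowly above NC, and of the DPI libraries, library 4 alone was above 6 counts. Tnfrsf13b, the related receptor TACI, showed no such peak, with 2.19 and 5.04 CPM in NC, 2.44 to 3.72 CPM in HFD + vehicle and 6.74, 6.79, 3.53 and 2.04 CPM in HFD + DPI. Fcer2a, the low-affinity IgE receptor CD23 of follicular B cells, had 0.911 and 6.72 CPM in NC, 14.4, 10.3 and 10.9 CPM in HFD + vehicle and 9.81, 1.36, 2.60 and 28.6 CPM in HFD + DPI, the vehicle libraries lying above NC. None of these 3 genes was called in any comparison.

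Among the surface markers, Ly6d, which marks lymphoid progenitors committed to the B lineage as well as mature B cells (chr15:74762056-74763620, - strand), had 0 and 5.42 CPM in NC, 21.3, 16.0 and 22.6 CPM in HFD + vehicle and 3.06, 15.3, 7.24 and 38.6 CPM in HFD + DPI. The vehicle libraries lay above NC and close to each other. The log2 fold change for HFD + vehicle against NC was 2.87 (standard error 1.27, unadjusted p = 0.0403, adjusted p = 0.364), and the call was lost without NC library 1 (1.88) and with scaling by library size alone (2.60). It was also lost without any 1 vehicle library, without DPI library 2 and in a fit of 2 groups, with values of 2.82 to 3.01 and unadjusted p-values of 0.0508 to 0.0689. Ms4a1, the gene of CD20, had 0 and 6.35 CPM in NC, 6.88, 6.53 and 8.67 CPM in HFD + vehicle and 1.47, 2.38, 3.15 and 18.8 CPM in HFD + DPI. DPI libraries 1 to 3 lay below all vehicle libraries, and Ms4a1 was not called. The same order held for Btla, Cd22, Fcer2a, Ly6d, Spib, Ralgps2 and Tnfrsf13c. It appears only with the remaining DPI library set aside, and its share over all genes was not determined.

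Cd37, a tetraspanin of leukocytes, and Cd24a, a glycoprotein of immature lymphocytes and other cells, had with Cd79a the highest mean CPM of the 32. Over the 9 libraries the means were 104 CPM for Cd37, 61.1 CPM for Cd79a and 57.1 CPM for Cd24a. Cd37 had 44.1 and 90.0 CPM in NC, 77.9, 138 and 102 CPM in HFD + vehicle and 78.6, 62.2, 143 and 197 CPM in HFD + DPI. Cd24a had 17.8 and 72.1 CPM in NC, 58.2, 71.1 and 39.2 CPM in HFD + vehicle and 38.1, 43.1, 69.0 and 106 CPM in HFD + DPI. Their groups overlapped in all 3 comparisons, and neither was called.

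**Figure D5:**
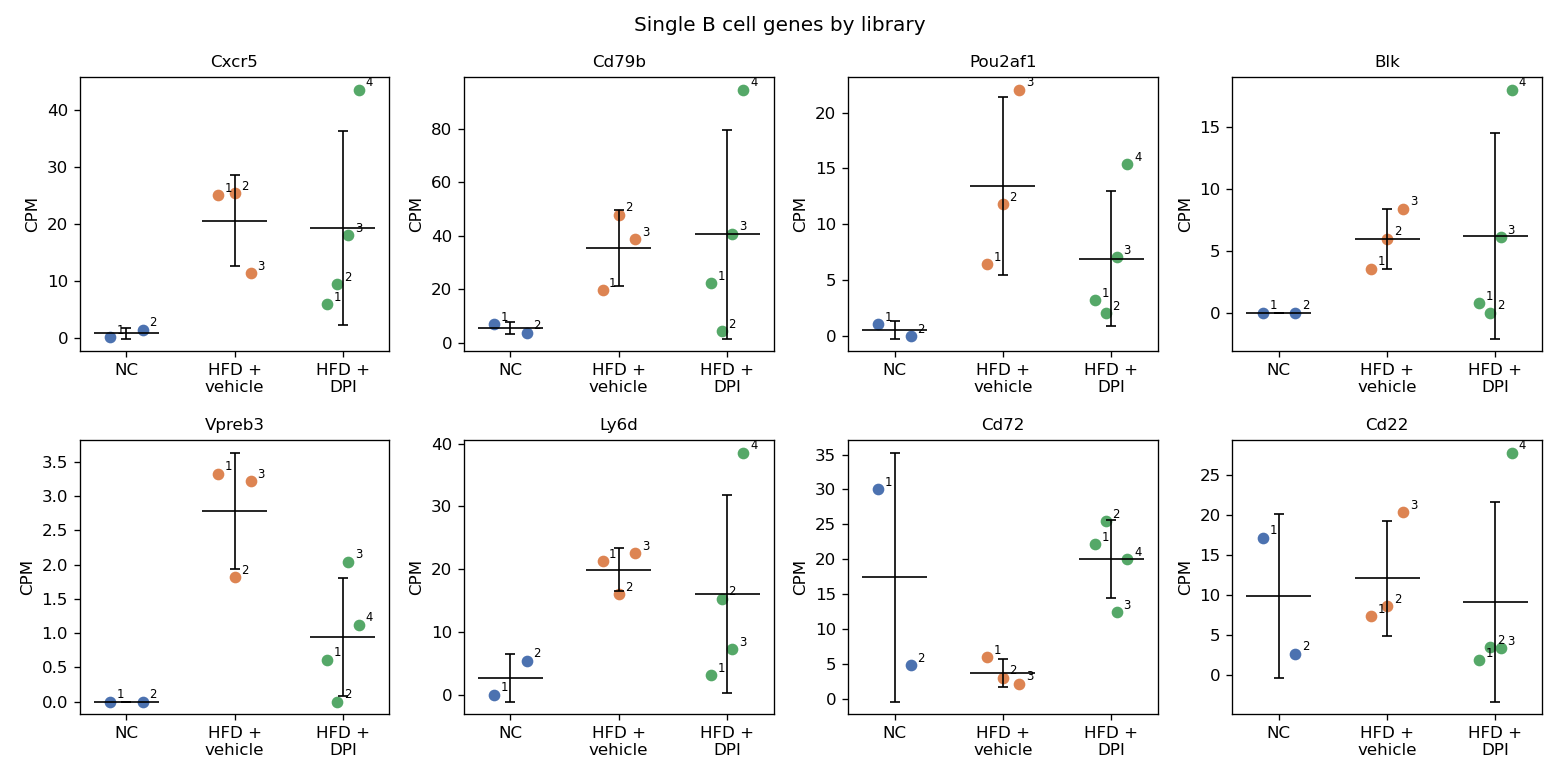
Level in CPM (vertical axes, each gene on its own scale) of 8 B cell genes in each library by group, with numbered points for libraries, horizontal lines for group means and bars for the SD. Cxcr5, Pou2af1, Blk, Cd79b, Vpreb3 and Ly6d lie between 0 and 6.92 CPM in NC, Cd72 is higher in all 4 DPI libraries than in all 3 vehicle libraries, and Cd22 is low in DPI libraries 1 to 3 and 27.8 CPM in library 4.

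H2-Oa and H2-Ob encode the chains of the modulator of class II peptide loading that B cells use. H2-Oa had 0.546 and 10.3 CPM in NC, 23.7, 11.4 and 15.4 CPM in HFD + vehicle and 7.54, 8.83, 13.2 and 30.2 CPM in HFD + DPI, and its vehicle libraries lay above NC. H2-Ob had 8.92 and 23.0 CPM in NC, 24.4, 30.3 and 17.6 CPM in HFD + vehicle and 4.90, 7.13, 24.7 and 59.5 CPM in HFD + DPI, with overlapping groups. Neither was called. Of 8 other genes of class II presentation, which macrophages and dendritic cells express as well, 2 were called as higher for HFD + vehicle against NC (H2-Aa and H2-DMb1) and 5 for DPI against NC (these and H2-Ab1, H2-Eb1 and Cd74), with none called for DPI against vehicle. The 8 genes summed to 5493 and 5142 CPM in NC and 8695 to 17900 CPM on the high-fat diet.

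Of the remaining genes, Vpreb3, an endoplasmic reticulum protein that associates with nascent immunoglobulin chains, was at 0 counts in both NC libraries, at 15, 10 and 13 counts in HFD + vehicle and at 10, 0, 11 and 11 counts in HFD + DPI. Its level was 2.79 ± 0.85 CPM (SD, n = 3) in HFD + vehicle, at least 5.04-fold higher than in NC (unadjusted p = 0.0172, adjusted p = 0.305), and 0.944 ± 0.86 CPM (SD, n = 4) in HFD + DPI, at least 1.71-fold higher (unadjusted p = 0.0408, adjusted p = 0.451). Between DPI and vehicle its log2 fold change came to -1.52 (standard error 1.40, unadjusted p = 0.298), and it ranged from -2.14 to -1.16 with 1 library left out. Vpreb3 was 1 of 6 genes for which a DPI library other than library 4 was the highest of its group. Its counts were at most 15 in any library, and leaving out either NC library ended both calls. The call for DPI against NC was also lost without any 1 vehicle library and without DPI library 3 or 4.

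Mzb1, a chaperone of antibody-secreting and marginal zone B cells, had 0 and 14 counts in NC, 17, 71 and 14 in HFD + vehicle and 14, 0, 79 and 162 in HFD + DPI. Fcrla, an intracellular Fc receptor-like protein, had 0 and 28 counts in NC, 37, 53 and 29 in HFD + vehicle and 48, 0, 57 and 243 in HFD + DPI. Both were at 0 in NC library 1 and DPI library 2. Ralgps2, an exchange factor for Ral GTPases, had 0 and 5.98 CPM in NC, 5.33 to 7.93 CPM in HFD + vehicle and 3.80, 4.41, 3.15 and 18.8 CPM in HFD + DPI. Chst3, a chondroitin sulfotransferase, had 1.46 and 1.49 CPM in NC, 2.89, 4.90 and 5.45 CPM in HFD + vehicle and 0.981, 1.70, 11.5 and 10.9 CPM in HFD + DPI. None of these 4 genes was called in any comparison.

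Of 23 other genes of the B cell receptor pathway, most of which macrophages use too, 1 was called for HFD + vehicle against NC (Cd81, lower), 1 for DPI against vehicle (Cd81, higher) and 1 for DPI against NC (Plcg2, lower), and their summed level stayed between 1994 and 2648 CPM in all libraries. Cd81, a tetraspanin that is expressed widely, had 158 and 69.1 CPM in NC, 10.4, 32.1 and 16.6 CPM in HFD + vehicle and 114, 88.0, 6.12 and 55.9 CPM in HFD + DPI. Its log2 fold change was -2.52 for HFD + vehicle against NC and 1.74 for DPI against vehicle (unadjusted p = 0.00776 and 0.0291). Inpp5d, the lipid phosphatase SHIP1, and the factor gene Nfatc1 had log2 fold changes of -0.87 and -0.85 for DPI against vehicle (unadjusted p = 0.0138 and 0.0386), under the 2-fold limit. Of 9 plasma cell genes, of which 7 could be tested, Slamf7 alone was called, as higher on the high-fat diet with and without DPI, and of 8 genes for B cell ligands, of which 4 could be tested, none was called in any comparison. Plcg2, Slamf7 and further called genes of the other lists are named because they are few, after their values were seen.

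Markers of other cell types moved over the same libraries. The 8 genes of a conventional dendritic cell list summed to 156 and 157 CPM in NC, 230 to 347 CPM in HFD + vehicle and 151, 214, 293 and 450 CPM in HFD + DPI, highest in DPI library 4. Ccr7 carried the higher sums of HFD + vehicle. Without it the other 7 genes summed to 156 and 110 CPM in NC, 70.2 to 116 CPM in HFD + vehicle and 117 to 171 CPM in HFD + DPI. The list's median log2 fold change was -0.63 for HFD + vehicle against NC. Of these genes, Ccr7, a lymph node homing receptor, was called as higher for HFD + vehicle against NC and Cd209a for DPI against NC. Ccr7 had 0 and 46.7 CPM in NC, 115, 276 and 142 CPM in HFD + vehicle and 34.0, 74.0, 122 and 320 CPM in HFD + DPI, so it too was at 0 in NC library 1 and highest in DPI library 4. Of 10 T cell genes, all tested, 4 were called as higher for HFD + vehicle against NC and 5 for DPI against NC, the same direction as the called B cell genes other than Cd72. The list had summed levels of 121 and 200 CPM in NC, 225 to 339 CPM in HFD + vehicle and 205 to 555 CPM in HFD + DPI, highest in DPI library 2 and lowest of the DPI group in library 4. The defining gene Cd3e had at least 38 counts in every library. Of 8 NK cell genes, 2 were called as higher for HFD + vehicle against NC (Klrk1 and Eomes) and 1 for DPI against NC (Eomes).

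Myeloid lists were uneven within themselves. The 9 neutrophil genes summed to 1227 and 3107 CPM in NC, 2525 to 3868 CPM in HFD + vehicle and 854, 855, 3711 and 5550 CPM in HFD + DPI, with S100a8 and S100a9 the largest parts in every library but DPI library 1. Both of these were highest in DPI library 4, whereas the granule genes Camp, at 43.0, 29.6, 55.5 and 23.3 CPM, and Mpo, at 40.8, 7.13, 59.9 and 3.47 CPM, were lowest of the DPI group there. For HFD + vehicle against NC, Mpo was called as higher and Camp as lower, for DPI against vehicle Ltf, Camp and Ngp as higher, and for DPI against NC Mpo as higher. The 9 macrophage genes summed to 19433 and 25481 CPM in NC, 15379 to 26132 CPM in HFD + vehicle and 21264 to 44465 CPM in HFD + DPI, nearly all of it Lyz2. The complement gene C1qa was called as lower for HFD + vehicle against NC and, with C1qc, as higher for DPI against vehicle, the directions that Cd72 had. All 3 tested eosinophil genes (Prg2, Epx and Ear6) were called as higher for DPI against vehicle and against NC, with list sums of 0 to 3.08 CPM outside the DPI group and 95.9, 102, 0.371 and 62.7 CPM in it. Of 5 Kupffer cell genes that could be tested, Id3 was called as higher in both comparisons with NC and Emr1 as lower for HFD + vehicle against NC.

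Of 6 endothelial genes, 3 were called as lower and 1 as higher for HFD + vehicle against NC, 2 as higher for DPI against vehicle and 1 as higher for DPI against NC. Their summed levels were 119 and 172 CPM in NC, 6.44 to 11.1 CPM in HFD + vehicle and 123, 73.0, 4.27 and 26.6 CPM in HFD + DPI. Of 6 hepatocyte genes, 3 were called as lower in each of the comparisons with NC. Their summed levels were 115 and 221 CPM in NC, 18 to 63.9 CPM in HFD + vehicle and 36.3 to 80.5 CPM in HFD + DPI. Of 5 erythroid genes, 3 (Hba-a1, Hba-a2 and Hbb-b2) were called as lower for DPI against NC, with sums of 3455 CPM in NC library 1 and 104 to 2180 CPM in the others. The part of other cell types in the B cell gene levels was not tested.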

How the data were processed

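RNA-seq of sorted mouse liver macrophages gave 9 libraries, grouped by the sample labels. Per the study's methods, bowtie2 and RSEM made the counts on mm10, whereas the submitters' processing notes name TopHat2 and edgeR. The authors deposited raw counts per gene without normalization, and 0 columns were unmapped. Counts were tested with edgeR 4.0.16 (limma 3.58.1) under R 4.3.3, using filterByExpr, TMM scaling and 1 quasi-likelihood fit of 3 groups without a replicate block, and p was adjusted by Benjamini-Hochberg over all genes tested. Depth was 3534325 to 15585775 counts per library. Alternatives were RLE factors, library size alone, other count filters, DESeq2 1.42.0, fits of 2 groups, a replicate block, removal of Rn45s and each library left out. The test was checked on simulated counts. Some single-gene results are not reported here.

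The 32 genes and all lists were chosen with earlier results of these data known. Fold changes are given for genes past an unadjusted p under 0.05 with a 2-fold change and for the 5 smallest p in a comparison. From other lists at most 3 genes are named by p for DPI against vehicle, besides defining markers. Where few genes of such a list were called they are named as well, and so are the largest parts of a sum, both after their values were seen. Gene positions and exon lengths came from GENCODE M21 (GRCm38), and tables and figures were made with Python 3.11.15, pandas 2.3.3, numpy 2.4.6 and matplotlib 3.10.9.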

Additional observations from a re-analysis of the deposited data

Results flagged for a closer look

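For 6 B cell genes, 1 DPI library lay further from the other 3 than Dixon's test allows at the 95% level, and in each case it was DPI library 4, at the top. Cd22 had 27.76 CPM there against 1.84 to 3.40 CPM in the other DPI libraries, and Btla had 51.84 CPM against 13.9 to 20.2 CPM. Ebf1 had 18.47 CPM against 0 to 1.67 CPM, and Tnfrsf13c had 12.25 CPM against 0.368 to 1.36 CPM. Ms4a1 had 18.78 CPM against 1.47 to 3.15 CPM, and Ralgps2 had 18.78 CPM against 3.15 to 4.41 CPM. Chance alone flags about 1 in 20 groups of normally distributed values. The CPM were tested without a log transform and some lay at or near 0, so that rate need not hold here. The genes of a library are also not independent of each other. Groups of 2 and 3 libraries were not examined in this way.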

How the results depend on the processing

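The numbers of called B cell genes, 7 for HFD + vehicle against NC, 1 for DPI against vehicle and 5 for DPI against NC, stayed within 1.5 times of these values in 19 of 24 alternatives that kept all libraries. With at least 10 counts in every library, which left 10 of the 32 genes, they were 1, 0 and 1, where 10.7%, 2.99% and 7.8% of all genes were called. With 1 library left out they ranged from 4 to 15, from 1 to 2 and from 4 to 16. The replicate numbers name different mice in each group, and same-numbered libraries did not deviate together (correlations of -0.02 to 0.08). With the replicate block the counts were 5, 4 (Cd72 higher, Cd22, Pax5 and Cd79a lower) and 1 (Cxcr5), in fits that called 7.87%, 3.52% and 7.18% of all genes. DPI library 4 shares its number with no other library, so the block leaves it out of the comparisons between groups. Fcrl1 for DPI against vehicle turned from 0.71 to -0.16 with the block and ranged from -0.15 to 1.31 with 1 library left out. Scaling by library size alone moved the summed level of HFD + vehicle library 3 from 527 to 432.6 CPM, below the 474 CPM of NC library 2, and the all-gene median for HFD + vehicle against NC from 0.03 to -0.26 (log2), and among the 32 genes it ended the call of Ly6d and added Pou2f2 as lower. Of the 13 called values of single genes, 8 of 92 recomputed with all libraries and 17 of 117 with 1 left out lost their call. With 2 NC libraries, leaving out 1 assumes that the other varies like the remaining groups, and about 0.18 to 1 CPM limits what the sparse genes can show.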
